A study of Mus musculus with 18 samples.

Results

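Cubn, Amn, Lrp2 and Dab2 encode the endocytic receptor complex of the yolk sac, and were followed across 20 named cell classes, 17 of which had enough cells in WT to be ranked, and 4 genotypes of the mouse embryo at E8.5. The genes were taken from the deposited feature lists by their symbol, which gave 4 of the 31053 mouse genes. Their raw counts of unique molecular identifiers (UMIs, 1 per captured transcript molecule) were summed over cell barcodes with 1500 or more mouse UMIs, by genotype and by cell class. The study asked how the loss of single DNA methyltransferases alters early organogenesis, and profiled single dissociated embryos by 10x Genomics 3' v3 single-cell RNA-seq. There were 7 wild-type (WT) libraries, 3 libraries of Dnmt1 KO embryos, null for the maintenance DNA methyltransferase, 4 of Dnmt3a KO embryos and 4 labelled Dnmt3b KO (counted as 3 embryos, since a pair shared most cell barcodes), the labels giving the loss of a de novo methyltransferase for each. All groups shared the 129S4/SvJae strain background and the E8.5 stage, came from matings of heterozygous parents, received no treatment and were genotyped by PCR on the ectoplacental cone. By its label every cell of a KO embryo carries the null alleles, extraembryonic cells included, so effects that arise within a class and effects of the surrounding tissues cannot be told apart.

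Cubilin, the product of Cubn, is a large peripheral receptor without a membrane anchor, and amnionless, the product of Amn, is the transmembrane partner that carries it to the apical surface; the pair is known as cubam. Megalin, the product of Lrp2, is a giant receptor of the low-density lipoprotein receptor family that takes up many of the same ligands, among them vitamin-binding proteins, lipoproteins and albumin. Dab2 is a clathrin adaptor that binds the cytoplasmic tails of such receptors and brings them into coated pits. In rodents the visceral endoderm of the yolk sac feeds the embryo through this uptake route before the placenta takes over, and the same receptors later work in the kidney proximal tubule.

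The genes lie at 4 separate loci (GENCODE coordinates on GRCm38, the mm10 build of the files). Cubn spans chr2:13276338-13491813 on the minus strand, Lrp2 chr2:69424340-69586065 on the minus strand, Amn chr12:111271095-111276426 on the plus strand and Dab2 chr15:6299788-6440712 on the plus strand. Cubn overlaps the antisense gene Gm13270, and Dab2 the antisense genes Gm16311 and Gm18888. The 3' chemistry keeps strand, but how the counting treated these overlaps was not tested. Since the series concerns enzymes that methylate CpG dinucleotides, the promoters are shown with each CpG in capitals. They are the RefSeq GRCm38.p6 sequences from 250 bases before to 50 bases after the annotated start, read 5' to 3' on the strand of the gene. All 4 genes were matched, Dab2 with 2 starts.
Cubn, chr2:13491827-13492126 (-): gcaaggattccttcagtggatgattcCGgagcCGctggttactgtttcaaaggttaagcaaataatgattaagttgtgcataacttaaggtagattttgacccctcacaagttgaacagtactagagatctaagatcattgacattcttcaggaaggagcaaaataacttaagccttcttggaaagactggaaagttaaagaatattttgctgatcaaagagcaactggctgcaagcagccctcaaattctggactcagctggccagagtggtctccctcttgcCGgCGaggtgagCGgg
Amn, chr12:111270846-111271145 (+): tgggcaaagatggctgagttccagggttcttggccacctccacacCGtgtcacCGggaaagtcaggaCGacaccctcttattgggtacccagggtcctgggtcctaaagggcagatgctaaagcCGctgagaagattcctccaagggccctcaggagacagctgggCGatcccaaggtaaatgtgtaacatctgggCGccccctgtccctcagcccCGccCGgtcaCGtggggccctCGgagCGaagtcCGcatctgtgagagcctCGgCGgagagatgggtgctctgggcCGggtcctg
Lrp2, chr2:69585980-69586279 (-): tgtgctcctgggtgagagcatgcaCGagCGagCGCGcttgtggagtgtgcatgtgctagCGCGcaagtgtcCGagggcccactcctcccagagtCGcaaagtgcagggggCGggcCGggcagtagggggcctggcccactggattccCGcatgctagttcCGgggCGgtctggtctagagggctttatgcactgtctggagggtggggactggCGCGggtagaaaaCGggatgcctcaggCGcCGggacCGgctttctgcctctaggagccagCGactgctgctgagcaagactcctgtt
Dab2 upstream start, chr15:6299539-6299838 (+): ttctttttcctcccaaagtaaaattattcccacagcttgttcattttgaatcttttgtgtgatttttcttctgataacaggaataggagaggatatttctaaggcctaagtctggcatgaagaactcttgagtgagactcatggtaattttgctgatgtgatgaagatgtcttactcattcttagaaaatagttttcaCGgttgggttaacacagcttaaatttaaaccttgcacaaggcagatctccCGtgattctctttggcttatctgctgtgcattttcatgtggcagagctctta
Dab2 downstream start, chr15:6386498-6386797 (+): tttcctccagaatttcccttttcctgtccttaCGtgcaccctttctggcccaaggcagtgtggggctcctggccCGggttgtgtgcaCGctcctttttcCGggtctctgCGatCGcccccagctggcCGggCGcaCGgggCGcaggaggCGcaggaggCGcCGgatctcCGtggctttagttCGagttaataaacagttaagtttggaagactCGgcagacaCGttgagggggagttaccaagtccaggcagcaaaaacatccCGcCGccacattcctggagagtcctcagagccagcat

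The 4 genes do not share one kind of promoter. Among 32851 mouse promoters of the same length, 300 bases, the median number of CpGs was 7. The Cubn promoter held 5 CpGs, and 38.0% of promoters held fewer. The upstream Dab2 promoter held 2 CpGs, with 14.1% of promoters below it, whereas the downstream one held 19, with 71.9% below it. The promoters of Amn (15 CpGs, 65.4% below) and Lrp2 (20 CpGs, 73.5% below) were on the CpG-rich side. Both strands were searched for 5 motifs, none of which contains another: AGATAA (bound by GATA factors, in 11.2% of all promoters), GTTAAT (part of the HNF1 site, 7.1%), CACGTG (E-box, 7.15%), CAAAGT (part of the HNF4 site, 14.4%) and TATAAA (found in the TATA box, 13.6%). The Amn promoter held CACGTG, the Lrp2 promoter CAAAGT, the upstream Dab2 promoter AGATAA and CAAAGT, and the downstream Dab2 promoter GTTAAT. The Cubn window held none of these letters. No motif was common to all 4 genes.

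After filtering, 107980 cells remained, 1361 to 12595 per library, with a median depth per cell of 4384 to 60574.5 UMIs depending on the library. Of these, 16766 were extraembryonic (ExE) endoderm, the class named from 12 markers of visceral endoderm such as Ttr, Afp and Apoa4, with the 4 genes kept out of the clustering. The libraries of Dnmt3b KO 1 and Dnmt3b KO 2 shared 12249 cell barcodes, 86.5% of the smaller library, against at most 133 for any other pair, and 96.3% of the 7740 cells kept in both fell in the same class. Both totals above count such cells once for each library. The libraries were summed and counted as 1 embryo, which leaves 3 embryos labelled Dnmt3b KO and 17 in all. The targeted gene was low in every Dnmt1 KO library (14.9 to 15.7 Dnmt1 UMIs in every 1000000 of the library, CPM, against 83.3 to 115.7 in WT) and in every Dnmt3a KO library (7.49 to 11.7 against 23.1 to 35.1 CPM). In the libraries labelled Dnmt3b KO, Dnmt3b stood at 54.4 to 68.4 CPM, within the WT range of 35.6 to 87.3, which checks the label only if the mutant allele alters the counted 3' end; the libraries labelled Dnmt3b KO 11 and 12 also held 15.1 and 7.58 CPM of Dnmt3a, below every WT library. The genotypes also differed in sex. Y-linked genes stood at 0.00447 to 0.146 CPM in 6 of 7 WT libraries and at 91.3 in WT 2, but at 93.5 to 111.8 CPM in all Dnmt1 KO and Dnmt3a KO libraries and at 0.0122 in the library labelled Dnmt3b KO 12 alone of its 4, so sex and genotype can be told apart only through WT 2 and Dnmt3b KO 12. P-values below measure the spread between these embryos.

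In WT embryos all 4 genes reached their highest level in the ExE endoderm, but in 2 patterns. Cubn and Amn were low everywhere else, in most classes at about the rate of the endoderm markers. Lrp2 and Dab2 were also present in several classes of the embryo and its membranes. Levels are CPM of the summed UMIs of a class in an embryo, and 3' counts are not compared between genes. Cubn stood at 473.7, 624.6 and 685.4 CPM (lowest, median and highest of 7 WT embryos; mean 619.4 ± 70.5, SD) in the ExE endoderm. The next class, gut endoderm, held 4.87 ± 2.86 CPM of Cubn (n = 7), and the other 15 classes fell between 0.744 and 2.61 CPM, where neighbours in the order were not separated beyond their spread. Amn stood at 868.4, 964.0 and 1097 CPM in the ExE endoderm (mean 979.6 ± 107.8, n = 7). Gut endoderm held 14.2 ± 7.20 CPM of Amn and cardiomyocytes 6.71 ± 3.96 CPM, and the others 2.37 to 4.15 CPM. For both genes every WT embryo was higher in the ExE endoderm than in any other class.

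RNA released from endoderm cells can give UMIs in cells that do not express a gene, so each level was set against the summed endoderm markers in the same class, as a ratio to that in the ExE endoderm. For Cubn this ratio had a median of 0.988 over the 15 classes outside the ExE and gut endoderm (range 0.0702 to 1.16). For Amn it had a median of 0.773 (0.521 to 1.59). Cubn and Amn thus appeared outside the endoderm at about the rate of the endoderm markers, whose sum was 0.301% to 0.872% of its level in the ExE endoderm. The highest ratios were those of Cubn in erythroid cells (1.16) and Amn in cardiomyocytes (1.59), each with 6 of 7 WT embryos above the endoderm ratio. In the gut endoderm, where the marker sum was 8.31%, the ratios were 0.0805 for Cubn and 0.135 for Amn, each with 0 of 7 WT embryos above it. A class that itself expresses the markers has a lower ratio. For the gut endoderm the ratio therefore cannot place a gene against released RNA. Over the 15 classes outside the ExE and gut endoderm, the ratio ran from 1.42 to 196 for Lrp2 and from 1.2 to 27.9 for Dab2. It was above 2 in 13 classes for each gene. In the gut endoderm it was 0.81 for Lrp2 and 0.786 for Dab2, with 3 and 1 of 7 WT embryos above the endoderm ratio. The same limit holds for these gut ratios.

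Lrp2 stood at 103.8, 131.9 and 192.8 CPM in the ExE endoderm (mean 141.7 ± 31.4, n = 7). The ExE mesoderm followed at 78.0 ± 17.6 CPM and the forebrain and midbrain at 64.9 ± 15.6 CPM, and each step down was seen in 7 of 7 embryos. Surface ectoderm (33.9 ± 10.2 CPM) and hindbrain and spinal cord (33.0 ± 8.94 CPM) came next and did not differ beyond their spread. Neuromesodermal progenitors (NMP, 13.8 ± 4.64 CPM), neural crest (12 ± 7.04), pharyngeal mesoderm (11.5 ± 4.10) and gut endoderm (11.4 ± 2.24) formed a group without a clear order. Megalin is known as an apical receptor of the neuroepithelium as well as of the yolk sac. The lowest levels of Lrp2 were in erythroid cells (0.788 ± 0.309 CPM, n = 7) and immune cells (0.729 ± 0.808 CPM, n = 3).

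Dab2 stood at 953.9, 1186 and 1278 CPM in the ExE endoderm (mean 1129 ± 135.6, n = 7). Pharyngeal mesoderm (102.0 ± 33.4 CPM, n = 6), ExE mesoderm (98.2 ± 14.6) and cardiomyocytes (91.7 ± 18.9) came next: the first was above the second in 4 of 6 embryos, and the second above the third in 7 of 7. Gut endoderm (71.8 ± 26.5 CPM) and endothelium (67.05 ± 9.44 CPM) overlapped. Dab2 was lowest in erythroid cells, at 4.16 ± 1.86 CPM. The plot of levels by class shows the gap of Cubn, Amn and Dab2 to every other class, and the graded series of Lrp2.

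**Figure D1:**
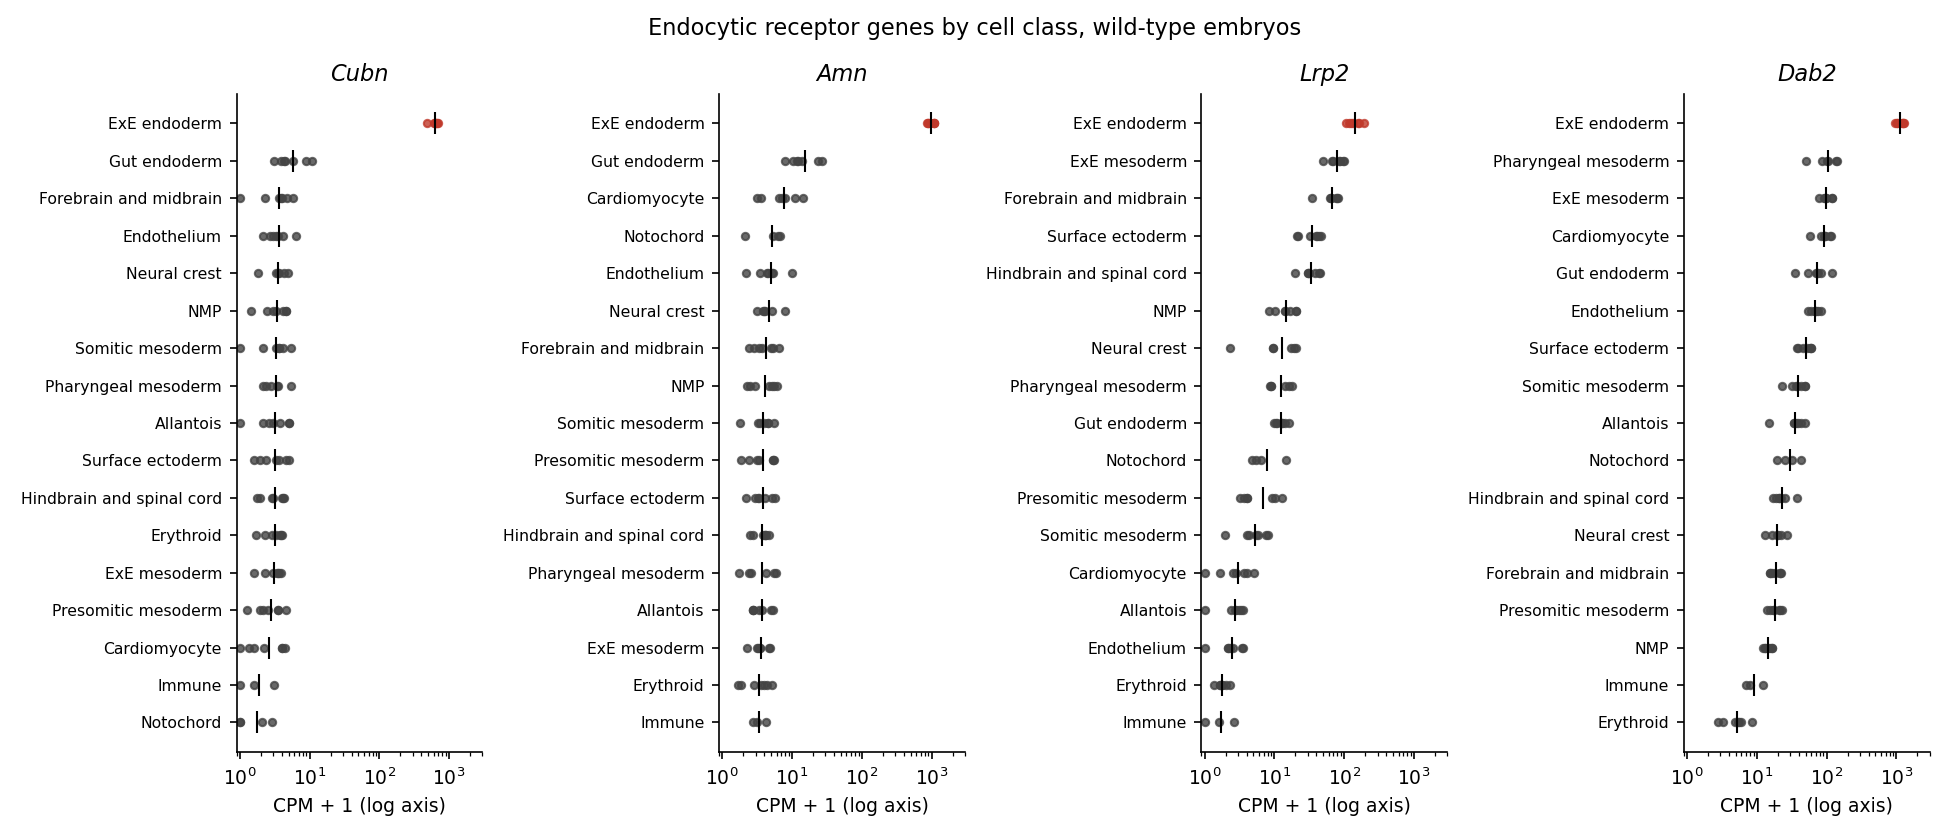
CPM + 1 on a log axis for the 4 genes in WT embryos, 1 panel per gene, with classes ordered by their mean; points are embryos with at least 25 cells of the class (3 to 7) and the short bar is the mean. Cubn (619.4 CPM), Amn (979.6 CPM) and Dab2 (1129 CPM, with the next class at 102.0) stand apart in the ExE endoderm, in red, whereas Lrp2 (141.7, then 78.0 CPM) descends through the other classes without such a gap.

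The molecules of a WT embryo were also traced to their class. The ExE endoderm made up 14.7% ± 5.01 of the UMIs (SD, n = 7). It gave 97.3% ± 2.34 of the Cubn UMIs and 97.1% ± 2.57 of the Amn UMIs, but 79.9% ± 10.5 for Dab2 and 53.3% ± 11.6 for Lrp2. The next largest named source of Lrp2 was the ExE mesoderm, with 9.91% ± 4.25. Cells without a named class gave 6.0% ± 6.1 of the Dab2 UMIs (2.3% to 19.6%) and 10.2% ± 1.46 of those of Lrp2. Among them is cluster 17, described below, whose best score was for ExE endoderm.

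Within the ExE endoderm most cells held the adaptor and amnionless. At 3000 UMIs per cell, 95.0% ± 1.88 of WT ExE endoderm cells had a Dab2 UMI (97.1% before thinning), 88.7% ± 3.96 an Amn UMI (89.5%), 64.0% ± 12 a Cubn UMI (67.1%) and 27.7% ± 9.01 a Lrp2 UMI (55.6%; mean ± SD over 7 embryos). All 4 genes were seen together in 20.4% ± 7.72 of thinned cells (53.8% before thinning), and none of them in 0.437% ± 0.600 (0.868%). Erythroid cells, which should lack all 4, gave 1.68% for Dab2, 0.811% for Amn, 0.854% for Cubn and 0.225% for Lrp2 at the same depth (12.5%, 8.38%, 8.16% and 2.88% before thinning). Median depth was 13870 UMIs in the ExE endoderm and 31580 in the erythroid cells, and 1059 of 4493 and 404 of 4770 cells were left out as shallower than 3000 UMIs.

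The ExE endoderm was not uniform for the receptors. The WT cells lay in cluster 0, led by Apoa1, Ttr, Car7 and S100g, and cluster 2, led by Apob, Cubn and Afp; they differed in depth as well, at 4760 and 73680 UMIs per cell on average. Cubn stood at 161 ± 74.5 CPM in cluster 0 and 656 ± 42.7 CPM in cluster 2, with a median ratio within embryos of 4.12. Lrp2 stood at 39.0 ± 23.8 and 150 ± 30.1 CPM (median ratio 4.15), and Amn at 673 ± 86.5 and 1009 ± 102 CPM (1.54). These 3 genes were higher in cluster 2 in 7 of 7 embryos. Dab2 went the other way in 7 of 7 embryos, at 1208 ± 148 in cluster 0 and 1121 ± 130 CPM in cluster 2 (median ratio 0.919). The summed endoderm markers were alike, at 26600 ± 3507 and 27030 ± 3725 CPM. At 3000 UMIs per cell the share of cells with a UMI was 25.4% in cluster 0 against 81.5% in cluster 2 for Cubn, 9.14% against 35.9% for Lrp2, 80.2% against 93.2% for Amn and 94.7% against 95.1% for Dab2. The part that depth per cell plays in these differences was not tested, and cells clustered on their own genes give no test.

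Another, shallow cluster (17, 4132 UMIs per cell), whose best score was for ExE endoderm but which was left without a name because of its depth, extended the series. It held 33.2 ± 5.83 CPM of Cubn, 146 ± 38.3 of Amn and 5.31 ± 4.35 of Lrp2, below both other clusters (n = 5 WT embryos). The summed endoderm markers were lower on average as well, at 13260 ± 7216 CPM (5190 to 23670) against 26600 and 27030 CPM in clusters 0 and 2. Dab2 stood at 1402 ± 214 CPM there, among the genes that led the cluster. Only 0.3% of the reference cells of cluster 2 were Dnmt1 KO, and the Dnmt1 KO embryos had a cluster of their own, 10, in which 98.7% of the reference cells were Dnmt1 KO. In cluster 10 Cubn stood at 687 ± 58.8, Amn at 859 ± 8.88, Lrp2 at 193 ± 17.9 and Dab2 at 1286 ± 68.6 CPM (n = 3), at 86230 UMIs per cell. The order of the clusters in Dnmt1 KO was that of WT: Cubn, Amn and Lrp2 were lower in cluster 0 (252 ± 78.8, 579 ± 53.5 and 74.7 ± 31.3 CPM) and Dab2 was higher there (1449 ± 154 CPM).

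**Figure D2:**
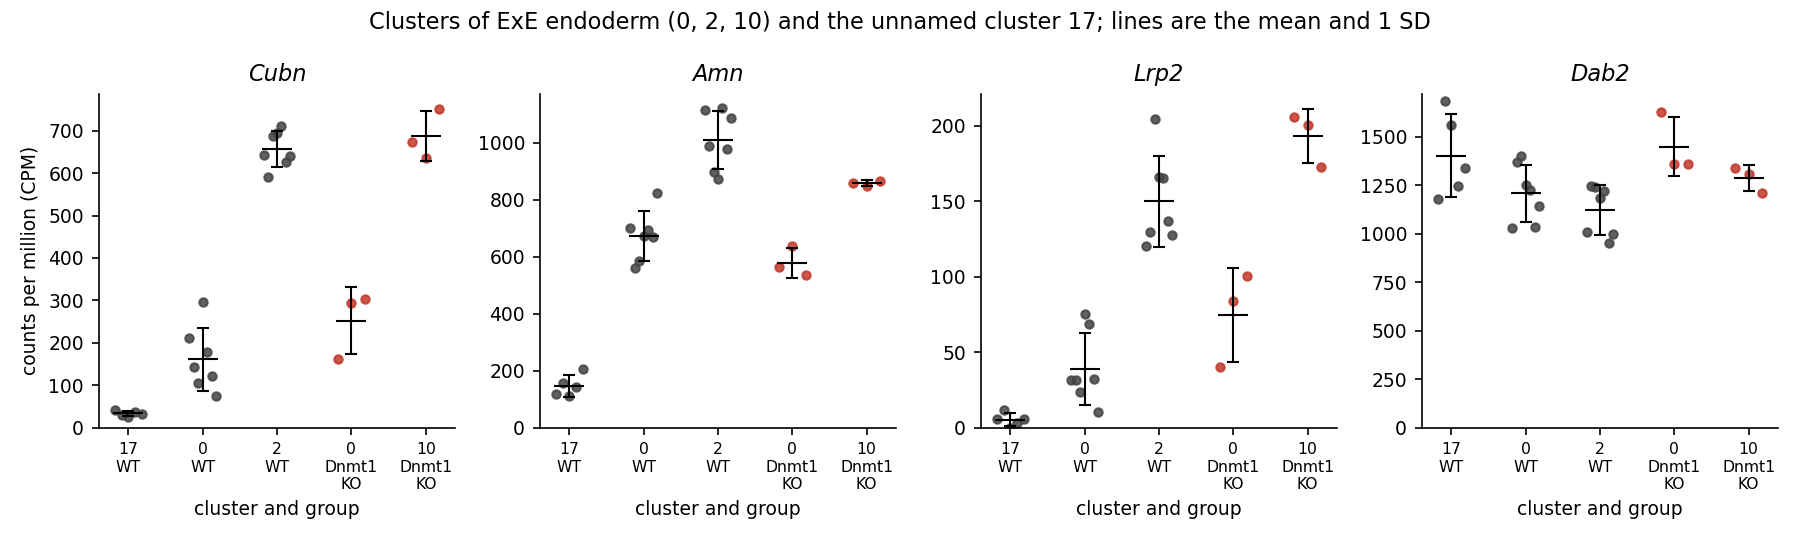
CPM of each gene in the unnamed cluster 17 and the ExE endoderm clusters 0, 2 and 10, for WT embryos in grey and Dnmt1 KO embryos in red; points are embryos and lines are the mean and 1 SD, on axes from 0. Cubn, Amn and Lrp2 step up from cluster 17 to 0 and from 0 to 2 or 10, whereas WT Dab2 stays between 1121 and 1402 CPM on average. Cluster 17 is drawn for WT embryos only. Not drawn is Dnmt1 KO 3, the 1 Dnmt1 KO embryo with at least 25 cells in that cluster, with Dab2 at 2095 CPM.

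The genes whose class pattern was most like that of each member were ranked by Pearson's r of the mean WT log2(CPM + 1) over 17 classes, among 12233 genes, as a description. For Cubn these were Fga (r = 0.995), Apoa4, Pdzd3, Cfi and Slc23a3. For Amn they included Spp2 (r = 0.987), Slc23a1, Ugt2b34 and Gm17067. Cubn ranked 53 for Amn and Amn ranked 75 for Cubn (r = 0.968). Ezr (r = 0.877), Def8, Rab6b, Prkcz and Sdc4 were most like Lrp2; Ezr encodes ezrin, a linker of the apical membrane to actin. Tnfsf12 (r = 0.945), Sccpdh, Tor1aip2, Slc31a1 and Sec24a were most like Dab2. Lrp2 had r of 0.525 with Cubn, 0.457 with Amn and 0.512 with Dab2, and classes share libraries and free RNA.

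In whole embryos the 4 genes were higher in Dnmt1 KO 1 and 2 than in any WT embryo, and not in Dnmt1 KO 3. Cubn stood at 32.6, 98.2 and 134 CPM (lowest, median and highest) in the 7 WT embryos and at 268, 198 and 69.5 CPM in Dnmt1 KO 1, 2 and 3. Amn stood at 60.9, 162 and 223 CPM in WT and at 345, 268 and 83.5 CPM in Dnmt1 KO. Dnmt1 KO 3 was inside the WT range for both genes. Lrp2 stood at 20.1, 40.0 and 59.8 CPM in WT and at 102, 73.7 and 32.7 CPM in Dnmt1 KO. Dab2 stood at 141, 189 and 291 CPM in WT and at 564, 428 and 158 CPM in Dnmt1 KO. None of the 4 passed the test (edgeR quasi-likelihood, adjusted p under 0.01 over all genes, with a log2 change of 1 or more), against 14.2% of all 18757 genes called in this comparison. The log2 fold changes (KO minus WT) were 0.98 for Cubn (SE 0.35, 95% interval 0.25 to 1.71, edgeR adjusted p = 0.0353), 0.70 for Amn (0.34, -0.01 to 1.41, 0.116), 0.91 for Lrp2 (0.28, 0.32 to 1.5, 0.0173) and 1.00 for Dab2 (0.30, 0.37 to 1.62, 0.0139). Without Dnmt1 KO 3 all 4 genes passed, whereas 2 passed without WT 3 and 1 passed without Dnmt3a KO 2. The shares of all genes called in these refits are not given, so the counts cannot be set against them.

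A whole-embryo sum joins the level in a cell with the share of the cells, and more endoderm cells and more RNA per endoderm cell cannot be told apart in it. The ExE endoderm took 9.50% to 19.9% of the cells in WT embryos (median 12.3%), 29.3%, 27.3% and 10.9% in Dnmt1 KO 1, 2 and 3, 13.5%, 36.6%, 7.92% and 13.95% in Dnmt3a KO 1, 2, 13 and 14, and 9.55%, 14.7% and 10.3% in the embryos labelled Dnmt3b KO. The difference of the mean log2 shares was 0.67 for Dnmt1 KO (exact two-sided permutation p = 0.075, adjusted over 3 groups 0.225; the smallest p possible was 0.00833), 0.24 for Dnmt3a KO (exact p = 0.582; smallest 0.00303) and -0.20 for Dnmt3b KO (exact p = 0.442, adjusted 0.582). The unnamed cluster 17 was not counted in the endoderm share. The 2 Dnmt1 KO embryos with the high whole-embryo levels were those with the high endoderm share. Divided by the percentage of UMIs from ExE endoderm, whole-embryo Cubn was 6.38 to 7.30 CPM per 1% in the Dnmt1 KO embryos and 5.13 to 6.96 in WT. Amn was 8.62 to 8.77 against 8.86 to 11.2, Lrp2 2.37 to 3.44 against 1.83 to 3.66, and Dab2 13.8 to 16.6 against 11.4 to 22.1 CPM per 1%. For Lrp2 a class that WT embryos nearly lacked also gave UMIs: Epiblast-like cells, 247, 286 and 302 in Dnmt1 KO 1, 2 and 3 and under 25 in every WT embryo, held 35.1 to 48.2 CPM of Lrp2. These cells gave 12.1% of the Lrp2 UMIs of Dnmt1 KO embryos (4.85% to 23.9%, the most in Dnmt1 KO 3) and 0.00734% in WT. The class was cluster 18, with 96.3% of its reference cells from Dnmt1 KO. Its score of 1.99 was close to that for primordial germ cells, 1.77. Its name rests on markers such as Pou5f1 and Utf1, which the paper reported as upregulated in Dnmt1 KO across most cell types. Whether these cells are a separate cell type was not tested. Other classes went the opposite way. Forebrain and midbrain gave 6.38% of the Lrp2 UMIs in WT, hindbrain and spinal cord 7.73%, surface ectoderm 4.79% and NMP 1.93%. In Dnmt1 KO the same classes gave 0%, 0%, 0.00693% and 0%. These classes had too few Dnmt1 KO cells to test, and 0% to 1.5% of the reference cells of their clusters were Dnmt1 KO. The shares therefore reflect how few cells were assigned there and give no Lrp2 level per cell. The paper, by mapping to an atlas, reported brain, spinal cord and NMP cells as relatively underrepresented in Dnmt1 KO.

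**Figure D3:**
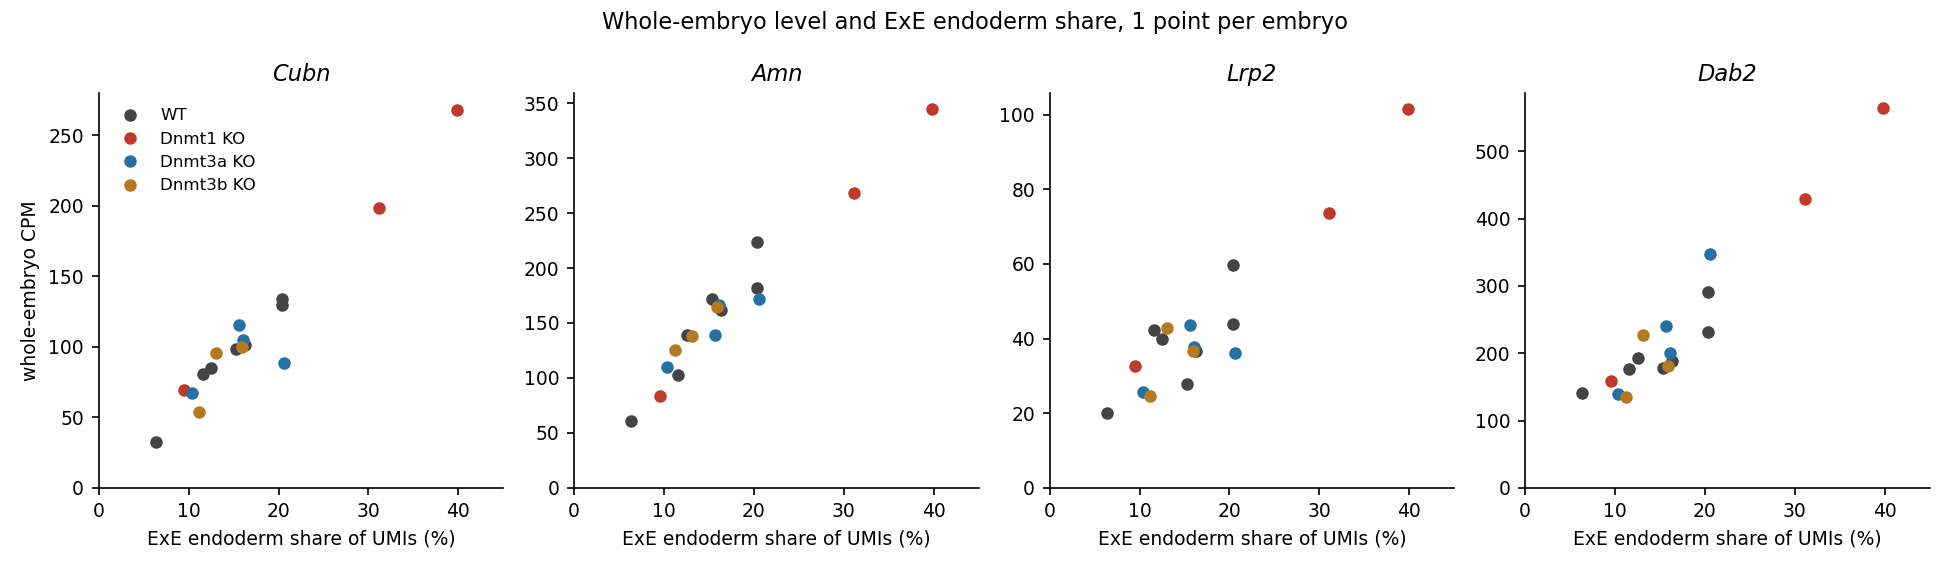
Whole-embryo CPM of each gene against the percentage of an embryo's UMIs that came from ExE endoderm, 1 point per embryo (17), coloured by genotype, with both axes from 0. Dnmt1 KO 1 and 2, at 39.8% and 31.1% of UMIs, lie above the WT embryos (6.35% to 20.4%) on both axes, and Dnmt1 KO 3, at 9.52%, lies among them.

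Within the ExE endoderm the levels of the receptor genes in Dnmt1 KO embryos were close to WT, and none passed the test, against 5.46% of 13721 genes called. Cubn stood at 668, 628 and 713.5 CPM in Dnmt1 KO 1, 2 and 3, with WT at 473.7 to 685.4 (log2 fold change 0.12, 95% interval -0.21 to 0.45, edgeR adjusted p = 0.597). Amn stood at 857, 845 and 843 CPM, below all WT embryos, whose lowest was 868.4 (-0.20, -0.44 to 0.04, edgeR adjusted p = 0.217). Lrp2 stood at 204, 198 and 167 CPM, with Dnmt1 KO 1 and 2 above the WT maximum of 192.8 (0.43, 0.07 to 0.79, edgeR adjusted p = 0.0673). Dab2 stood at 1344, 1311 and 1224 CPM, also with 2 embryos above the WT maximum of 1278 (0.21, -0.01 to 0.42, edgeR adjusted p = 0.149). Each interval lay within 1 log2 unit of 0. In cluster 0 alone, the cluster that held ExE endoderm of all 4 groups and a comparison added after the data were seen, the changes were 0.72 for Cubn (edgeR adjusted p = 0.187) and 1.20 for Lrp2 (edgeR adjusted p = 0.0686), and none of the 4 passed. The summed endoderm markers were lower in Dnmt1 KO ExE endoderm (17670 to 21470 CPM) than in any WT embryo (23660 to 34560 CPM), as they were in the embryos labelled Dnmt3b KO (18690 to 21250 CPM).

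In Dnmt3a KO and in the embryos labelled Dnmt3b KO none of the 4 genes passed the test in the ExE endoderm, and Dnmt3a KO 2 stood apart from its group. Over all genes 0.7% were called in the ExE endoderm of Dnmt3a KO and 1.29% in that of Dnmt3b KO, and 0.208% and 1.8% in whole embryos. In Dnmt3a KO 1, 2, 13 and 14 Cubn stood at 635, 387, 631 and 714 CPM and Amn at 1006, 772, 1035 and 860 CPM. Lrp2 stood at 145.5, 101, 129 and 173.5 CPM and Dab2 at 1058, 1331, 1099 and 1266 CPM in the same embryos. Dnmt3a KO 2, with 36.6% ExE endoderm cells, was the lowest of the group for Cubn, Amn and Lrp2 and the highest for Dab2. Of its 4610 ExE endoderm cells 4116 lay in the shallow cluster 0, and in cluster 2 alone it held 655 CPM of Cubn, 944 of Amn and 166 of Lrp2, beside 662 to 741, 872 to 1053 and 135 to 181 CPM in the other Dnmt3a KO embryos. Dab2 was still the highest of the group in cluster 2, at 1386 beside 1058 to 1265 CPM. The log2 fold changes were -0.09 for Cubn (95% interval -0.39 to 0.21), -0.11 for Amn (-0.33 to 0.11), -0.08 for Lrp2 (-0.41 to 0.25) and 0.04 for Dab2 (-0.16 to 0.24). In the embryos labelled Dnmt3b KO 1, 11 and 12, Cubn stood at 694, 605 and 463 CPM, Amn at 1005, 998.5 and 1081, Lrp2 at 182, 150 and 130, and Dab2 at 1258, 960 and 947 CPM. The log2 fold changes were -0.13 for Cubn (-0.46 to 0.20), 0.02 for Amn (-0.22 to 0.26), 0.07 for Lrp2 (-0.29 to 0.43) and -0.15 for Dab2 (-0.37 to 0.07). In whole embryos they lay between -0.13 and 0.19 in Dnmt3a KO, and between -0.21 and -0.08 in Dnmt3b KO.

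**Figure D4:**
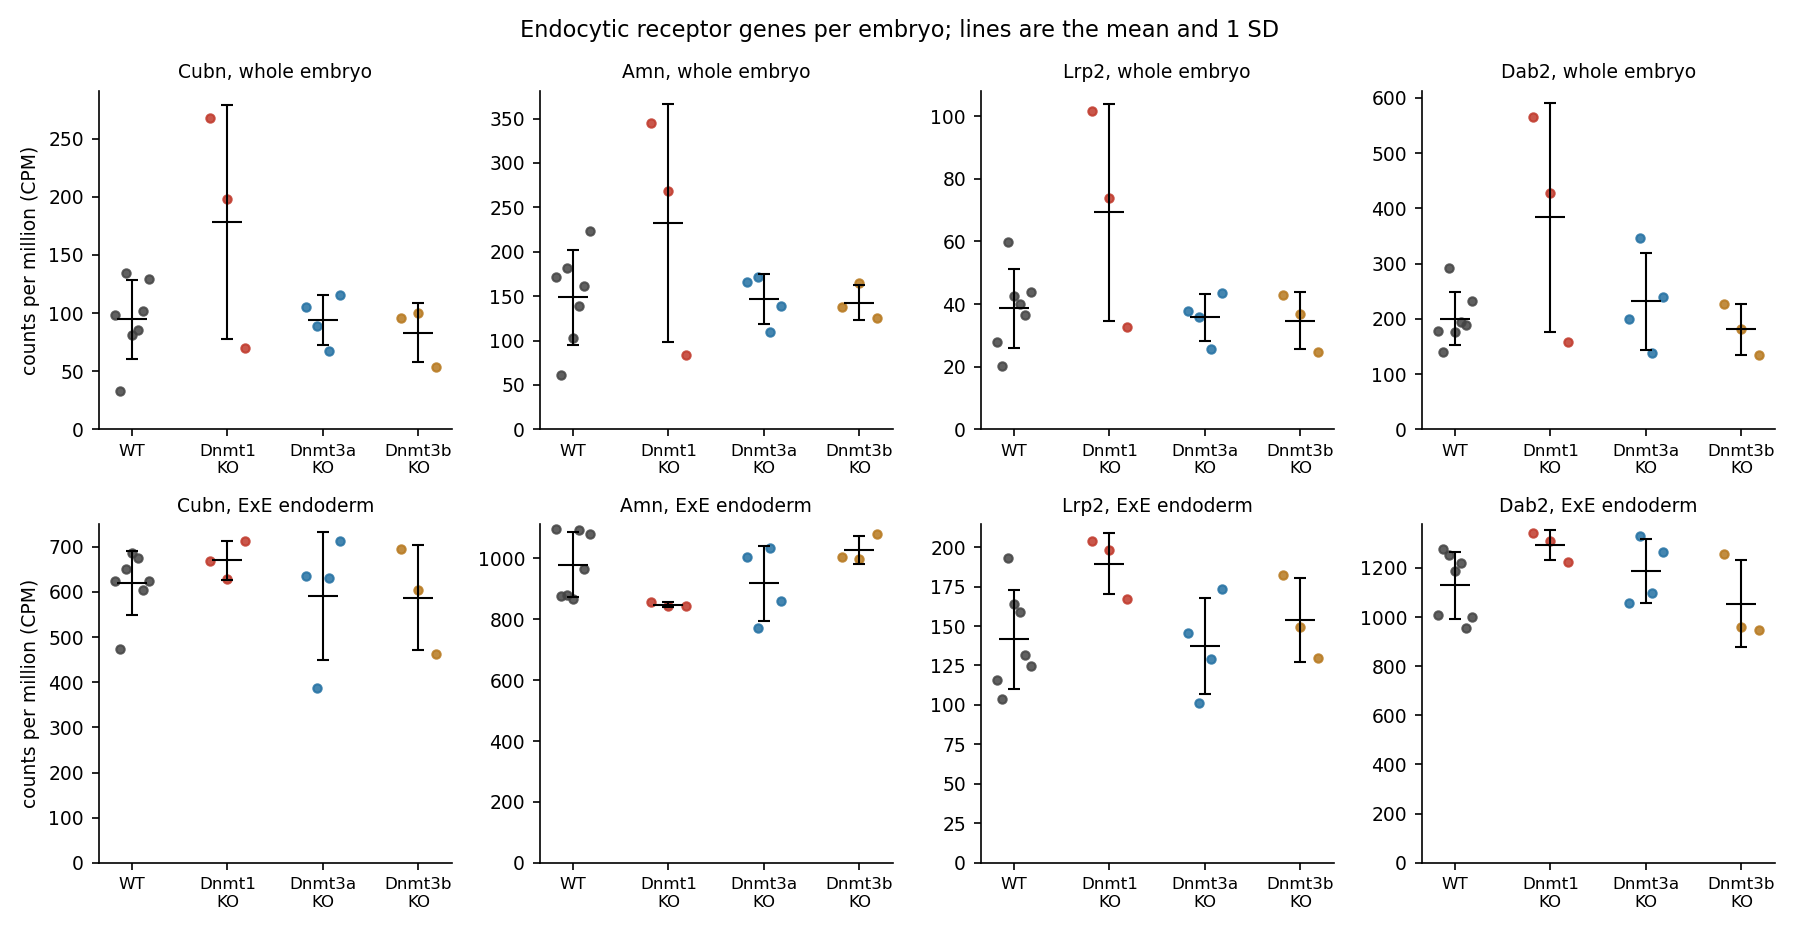
CPM of each gene in the whole embryo (top) and in the ExE endoderm (bottom) for WT (7), Dnmt1 KO (3), Dnmt3a KO (4) and, last, Dnmt3b KO (3) embryos, on axes from 0; points are embryos and lines are the mean and 1 SD. In whole embryos the Dnmt1 KO points spread from inside to above the WT range, and in the ExE endoderm the 4 groups overlap or lie side by side.

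Outside the ExE endoderm, 5 classes had enough Dnmt1 KO cells to test, the ExE mesoderm, gut endoderm, endothelium, pharyngeal mesoderm and immune cells. There 4 of 18 pairs of receptor gene and class passed the test, 1 higher and 3 lower, against 8.74% of all 59157 pairs of gene and class. Dab2 fell in the endothelium, from 52.5, 67.9 and 80.6 CPM (lowest, median and highest of 7 WT embryos) to 18.0, 18.4 and 16.65 CPM in Dnmt1 KO 1, 2 and 3. All Dnmt1 KO embryos were below all WT embryos, with 37, 40 and 137 endothelial cells (log2 fold change -1.88, SE 0.33, edgeR adjusted p = 0.000212). Most cells of the class lay in clusters 15 and 23, which held 71.5% and 27.1% of the Dnmt1 KO endothelium and 50.9% and 39.9% of that of WT. Another 9.04% of the WT class lay in cluster 44, which had no Dnmt1 KO reference cells. Dab2 was seen there in 59 of 192 WT cells (30.7%) at 3000 UMIs per cell. At 3000 UMIs per cell, Dab2 was seen in 144 of 576 WT cells (25%) and 4 of 91 Dnmt1 KO cells (4.4%) of cluster 15, led by Lyve1, and in 96 of 837 (11.5%) and 1 of 58 (1.72%) of cluster 23, led by Kdr and Etv2. These cells were pooled over embryos, and most Dnmt1 KO endothelial cells before thinning, 137, came from Dnmt1 KO 3. The shares therefore describe cells, and a difference between embryos within a cluster was not tested. The difference from the change in the ExE endoderm was itself tested: the log2 changes differed by -2.06 (exact two-sided permutation p = 0.00833, adjusted over 18 pairs 0.0375).

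Dab2 also passed in the pharyngeal mesoderm, at 49.4, 100.6 and 140 CPM (lowest, median and highest of 6 WT embryos) and 37.9, 30.4 and 35.4 CPM in the Dnmt1 KO embryos, all below WT (log2 fold change -1.47, SE 0.27, edgeR adjusted p = 0.000431). Here the groups did not lie in the same cells. In WT 98.2% of the class was in cluster 19, and in Dnmt1 KO 96.0% was in cluster 25, 98.9% of whose reference cells were Dnmt1 KO and whose score for pharyngeal mesoderm, 1.34, was close to that for presomitic mesoderm, 1.17. With classes taken from WT reference cells alone the change was -0.58 (edgeR adjusted p = 0.157) and did not pass.

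In the gut endoderm Amn and Lrp2 passed, in opposite directions. Amn rose from 6.99, 11 and 26.0 CPM (lowest, median and highest of 7 WT embryos) to 80.0, 62.5 and 40.7 CPM in Dnmt1 KO, all above WT (log2 fold change 2.22, SE 0.37, edgeR adjusted p = 0.000151). Lrp2 fell from 8.70, 11.7 and 15.2 CPM in WT to 6.92, 1.80 and 3.17 CPM, all below WT (-1.37, SE 0.34, edgeR adjusted p = 0.00565). Cubn, the partner of Amn, stood at 2.06 to 9.75 CPM in WT and 6.88 to 12.8 in Dnmt1 KO (0.96, 95% interval -0.09 to 2, edgeR adjusted p = 0.172), and Dab2 at 33.9 to 120 and 49.2 to 92.0 CPM (0.08, -0.51 to 0.67, edgeR adjusted p = 0.875). The Dnmt1 KO values rest on 28, 41 and 39 cells, of which 83.3% lay in cluster 45, 96.9% of whose reference cells were Dnmt1 KO, while WT gut cells lay in clusters 8, 31 and 35. Summed endoderm markers in the gut class were higher as well, at 22.9% to 41.8% of the embryo's own ExE endoderm in Dnmt1 KO against 4.89% to 11.9% in WT. Amn was 0.663% to 1.66% of that marker sum in the Dnmt1 KO gut class and 0.414% to 1.10% in the WT gut class, but 3.93% to 4.78% in the Dnmt1 KO ExE endoderm; the part of the marker rise in the Amn change was not tested. The call for Lrp2 was lost without Dnmt1 KO 2 (-1.06, edgeR adjusted p = 0.0478) or Dnmt1 KO 3 (-1.24, edgeR adjusted p = 0.0445), and with the Y-linked covariate (-1.54, edgeR adjusted p = 0.0134). After thinning, a Lrp2 UMI was seen in 2 of 88 Dnmt1 KO cells of cluster 45 (2.27%). In cluster 8 it was seen in 0 of 7 Dnmt1 KO cells. The WT shares were 2.68%, 2.25% and 5.32% in clusters 8, 31 and 35. So few Dnmt1 KO cells held a Lrp2 UMI that these shares do not resolve a fall. With at least 50 cells per embryo the gut endoderm and endothelium could not be tested in Dnmt1 KO, and 1 call was left, Dab2 in the pharyngeal mesoderm.

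**Figure D5:**
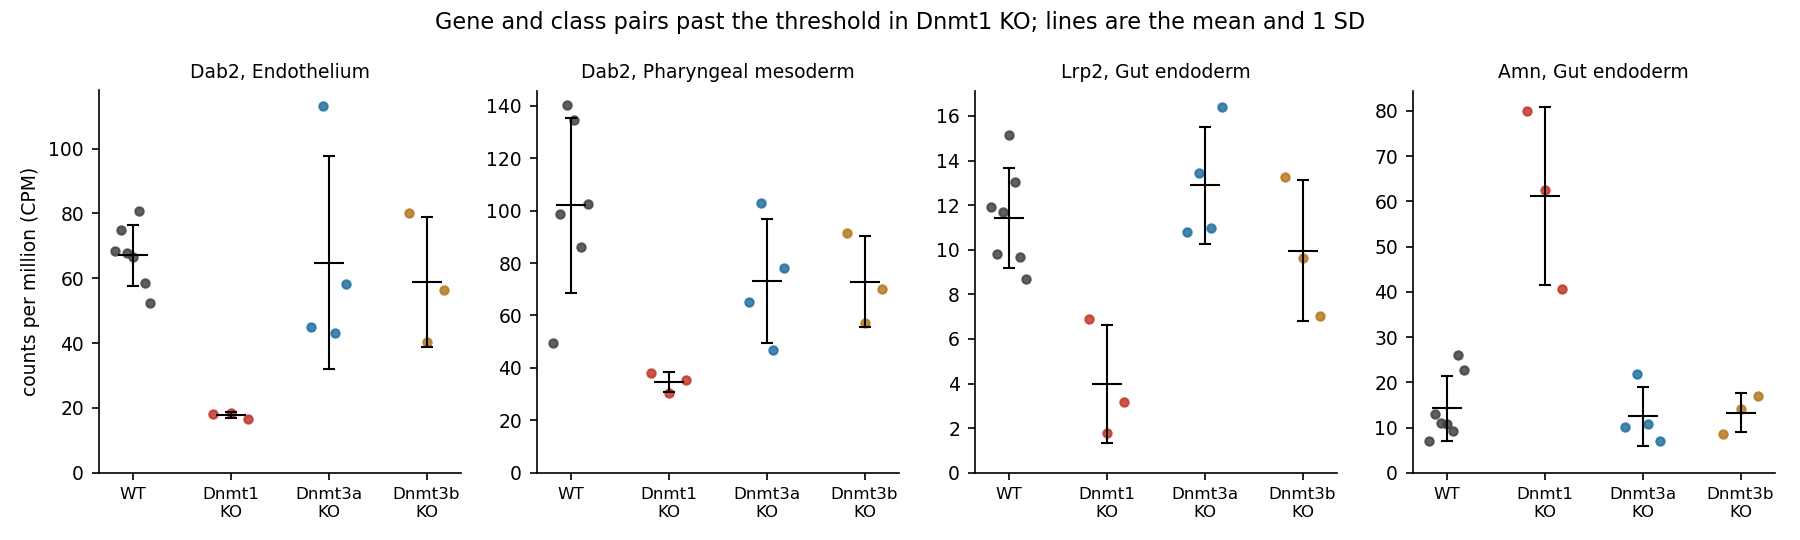
CPM in the 4 pairs of gene and class that passed in Dnmt1 KO, by group (WT, then Dnmt1, Dnmt3a and Dnmt3b KO), on axes from 0; points are embryos and lines are the mean and 1 SD. The 3 Dnmt1 KO embryos lie below all WT embryos for Dab2 and Lrp2 and above them for Amn.

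In the remaining pairs of Dnmt1 KO, Lrp2 in the ExE mesoderm stood at 48.8, 83.0 and 97.3 CPM in WT (lowest, median and highest) and at 31.7 to 65.6 CPM in Dnmt1 KO (log2 fold change -0.45, 95% interval -0.96 to 0.05, edgeR adjusted p = 0.149), and its change differed from that in the ExE endoderm by -1.0 (exact two-sided permutation p = 0.00833, adjusted 0.0375). Lrp2 in the endothelium stood at 7.20, 4.84 and 3.08 CPM in Dnmt1 KO 1, 2 and 3 (10, 5 and 5 UMIs), above every WT embryo (0 to 2.55 CPM), and did not pass (1.62, 0.18 to 3.05, edgeR adjusted p = 0.0898). Dab2 in the ExE mesoderm was at -0.01 (-0.35 to 0.33, edgeR adjusted p = 0.979). In the ExE mesoderm the groups lay partly in different clusters. Of the reference cells, 98.7% were Dnmt1 KO in cluster 24, 25.5% in cluster 30, and 0.2% and 0.3% in clusters 20 and 36. The part this plays in the changes was not tested. Cubn and Amn did not pass in the ExE mesoderm, endothelium or pharyngeal mesoderm, where WT embryos held them at about the rate of the endoderm markers.

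In Dnmt3a KO none of 59 pairs over 16 other classes passed, against 0.0629% of all pairs, although 23 had an unadjusted edgeR p under 0.05 (17752 of all 186156 pairs did). In Dnmt3b KO none of 58 pairs over 15 classes passed, against 0.592%, with 11 at an unadjusted edgeR p under 0.05 (25159 of 178402). The fitted changes of Cubn were above 0 in 14 of 14 classes in both groups, with medians of 0.94 and 0.68, and those of Amn in 14 of 15 classes, with medians of 0.90 and 0.73. Those of Dab2 were split, 10 of 16 and 7 of 15 above 0, as were those of Lrp2 in Dnmt3a KO, 7 of 14, whereas Lrp2 was below 0 in 11 of 14 classes in Dnmt3b KO. Over all pairs of gene and class the median change was 0.0036 in Dnmt3a KO and -0.0054 in Dnmt3b KO. These signs are not separate observations, since the classes come from the same embryos and share an embryo's free RNA. The median summed endoderm markers over classes outside the ExE and gut endoderm were 344 CPM in Dnmt3a KO 2, the embryo with the most endoderm cells, against 79.3 to 138 CPM in the other Dnmt3a KO embryos, 97.1 to 141 in those labelled Dnmt3b KO and 40.9 to 176 in WT. Over the same classes Cubn had a median of 8.83 CPM in Dnmt3a KO 2 against 0.426 to 3.54 CPM in WT, and Amn 11.25 against 1.28 to 4.42 CPM. Other embryos whose marker sum lay within the WT range were above WT as well, at 4.94, 4.34 and 4.27 CPM of Cubn in Dnmt3b KO 1, Dnmt3b KO 11 and Dnmt3a KO 14, and at 5.88, 5.75 and 4.54 CPM of Amn in Dnmt3b KO 1, Dnmt3b KO 11 and Dnmt3a KO 1. The part of free RNA in these changes was not tested.

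The other genes of the pathway were taken as 50 genes in 7 lists: other endocytic receptors, chaperone and adaptors, clathrin coat, endosome, lysosome, ligands and endoderm regulators. In the ExE endoderm of Dnmt1 KO embryos, 2 of 48 tested passed, beside 5.46% of all genes, both of them from the list of ligands. Gc, the vitamin D-binding protein and a ligand of megalin and cubilin, rose from 3.16 to 5.14 CPM in WT to 12.5 to 19.2 CPM (log2 fold change 1.89, SE 0.18, edgeR adjusted p = 5.69e-07). Trf, transferrin, fell from 222 to 446 CPM to 113 to 157 CPM (-1.17, SE 0.20, edgeR adjusted p = 0.00032). Neither gene's groups overlapped, but both are named because they passed, and the share of all genes without overlap is not given. Trf lost its call with the Y-linked covariate (-0.90, edgeR adjusted p = 0.0336) and Gc in cluster 0 alone (2.03, edgeR adjusted p = 0.0464). None of the 48 passed in Dnmt3a KO or Dnmt3b KO, beside 0.7% and 1.29% of all genes. An unadjusted edgeR p under 0.05 was found for 26, 5 and 13 of the 48 in Dnmt1, Dnmt3a and Dnmt3b KO, beside 5386, 2246 and 2359 of all 13721 genes. The median log2 fold change of the 48 was -0.06, -0.03 and -0.07 in the 3 comparisons, beside about 0 for all genes (-0.01, 0.01 and 0.00).

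In whole embryos 4 of 49 passed in Dnmt1 KO, beside 14.2% of all genes, among them Gc (3.56, SE 0.31), the endocytic motor myosin gene Myo6 (1.17, SE 0.29) and the receptor Lrp8 (-1.31, SE 0.26). Without Dnmt1 KO 3, 9 passed, and the share of all genes in that refit is not given. None of 49 passed in Dnmt3a KO, beside 0.208% of all genes, and 1, Gc (1.95, SE 0.31), in Dnmt3b KO, beside 1.8%. An unadjusted edgeR p under 0.05 was found for 23, 2 and 6 of the 49 in Dnmt1, Dnmt3a and Dnmt3b KO, beside 8634, 1793 and 3345 of all 18757 genes. Myo6 lost its call with the Y-linked covariate (1.35, edgeR adjusted p = 0.0585), and without WT 5, Dnmt1 KO 1 or Dnmt1 KO 2. Whole-embryo Gc stood at 0.419 to 1.09 CPM in WT, 6.82 to 9.45 in Dnmt1 KO, 0.697 to 2 in Dnmt3a KO embryos and 2.50 to 3.31 in the Dnmt3b KO embryos. Gc was found outside the endoderm too: in the endothelium it stood at 0 to 0.403 CPM in WT (4 UMIs in all), 5.76 to 9.87 in Dnmt1 KO (30 UMIs), 0.0925 to 0.756 in Dnmt3a KO embryos and 2.53 to 3.38 CPM in those labelled Dnmt3b KO. The 11 calls among 700 pairs of pathway gene and other class in Dnmt3b KO were all Gc, beside 0.592% of all pairs, but in those classes Gc met the count filter through the groups where it was high, so the number of its calls is no measure of how widely it changed. In the endothelium of Dnmt1 KO 9 of 47 other pathway genes passed, 8 of them lower, beside 9.79% of all 12252 genes there, 5.87% lower. In the gut endoderm 6 of 48 passed, 5 of them higher, beside 7.68% of all 13116 genes, 4.36% higher. Over the 5 classes 25 of 233 pairs passed, 11 higher and 14 lower, near the 8.74% of all pairs.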

How the data were processed

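The values are counts: the authors assigned reads to genes with Cell Ranger on mouse mm10, collapsed them by UMI and deposited raw counts of called cells (version 3.1.0 in 17 file headers, 5.0.0 in that of Dnmt3b KO 12). The reference of Dnmt3b KO 11, Dnmt3a KO 1 and 13, and WT 1 also held human genes, which were not used. Of 162336 barcodes, 128881 had at least 1500 UMIs, 115626 also had at most 30% mitochondrial and 35% ribosomal protein counts, and 107980 remained after removal of 7646 doublets (Scrublet in scanpy 1.11.5, Python 3.11.15, at 0.8% per 1000 cells).

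Classes were rebuilt by Leiden clustering (leidenalg 0.10.2; 47 clusters) without the 4 genes and the pathway lists, and named from marker lists; the atlas mapping of the study was not used here. Counts were summed per embryo and class (at least 25 cells, 3 embryos per group) and tested in edgeR 4.0.16 under R 4.3.3 (quasi-likelihood, 1 model of 4 groups, filterByExpr, TMM); a gene passed with a Benjamini-Hochberg adjusted p under 0.01 and a 1-unit or larger log2 change. The script was tested on simulated data. Cells were thinned to 3000 UMIs before the share with a UMI was taken. The share of ExE endoderm cells (log2, 0.5 cells added) and differences between classes were compared by exact permutation over embryos. Intervals are at 95%. DESeq2 1.42.0 and other settings served as alternatives. The 4 genes and all lists were chosen with earlier results of these data known. Named besides the 4 genes are pathway genes that passed in the whole embryo or ExE endoderm (at most 8 per comparison, by smallest p) and, for each member, the 5 genes most like it among those above 5 CPM in a class. A few genes that this rule would name are not reported here.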

Additional observations from a re-analysis of the deposited data

Results flagged for a closer look

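Single embryos stood far from the rest of their group, by Dixon's test, in 4 of 42 groups of 4 to 7 embryos, where chance flags about 1 in 20. Cubn in the ExE endoderm was 473.7 CPM in WT 2, the lowest of 7. Amn in the endothelium was 8.843 CPM in WT 1, and 22.09 CPM in Dnmt3a KO 2, each the highest of its group. Cubn in the gut endoderm was 14.42 CPM in Dnmt3a KO 2, the highest of 4.

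The effect of Dnmt1 KO differed between the ExE endoderm and another class for 5 pairs of receptor gene and class, by an exact two-sided permutation test adjusted over 18 pairs. The difference of log2(CPM + 1) changes, class minus ExE endoderm, was -2.06 for Dab2 in the endothelium, 2.30 for Amn in the gut endoderm, -1.88 for Lrp2 in the gut endoderm and -1.0 for Lrp2 in the ExE mesoderm (exact p = 0.00833 each, the smallest that 120 splits can give, adjusted 0.0375). It was -1.69 for Dab2 in the pharyngeal mesoderm (exact p = 0.0119, adjusted 0.0429). In the ExE endoderm, gut endoderm, pharyngeal mesoderm and ExE mesoderm, Dnmt1 KO and WT cells lay largely or partly in different clusters. The part this plays in the differences was not tested.

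Barcodes with under 1500 UMIs, used in no comparison, held more of the receptor genes in some KO libraries than in any WT library. Cubn stood at 349.5 and 341.5 CPM in Dnmt1 KO 1 and 2, and at 144 and 140.3 in Dnmt3a KO 2 and 14 (WT 36.9 to 132.6). Amn stood at 324.5 and 462 CPM in Dnmt1 KO 1 and 2 (WT 104.3 to 286.9). Lrp2 stood at 112.3 and 107.6 CPM in Dnmt1 KO 1 and 2, at 52.97 in Dnmt3a KO 2 and at 56.47 in the library labelled Dnmt3b KO 1 (WT 20.7 to 50.4). Dab2 stood at 786.3 and 829.3 CPM in Dnmt1 KO 1 and 2 and 680.9 in Dnmt3a KO 2 (WT 288.7 to 562.5). Dnmt1 KO 1 and 2 and Dnmt3a KO 2 also had the highest shares of ExE endoderm cells.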

How the results depend on the processing

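In the ExE endoderm 0 of the 4 genes passed in each genotype under all 30 alternatives. Dab2 in the endothelium and Amn in the gut endoderm of Dnmt1 KO passed under all 24 alternatives that could test them (-2.05 to -1.82 and 1.98 to 2.67). In whole Dnmt1 KO embryos the count of 0 became 1 with DESeq2 (Dab2) and 0 to 4 on leaving out single embryos (4 without Dnmt1 KO 3, 2 without WT 3, 1 without Dnmt3a KO 2), and the 4 pathway calls became 1 with the replicate block (Lrp8 -1.05, edgeR adjusted p = 0.0112, and Myo6 1.15, 0.179, were lost) and 2 to 9 on leaving out embryos (2 without Dnmt1 KO 2, 9 without Dnmt1 KO 3). The 1 pathway call in whole Dnmt3b KO embryos became 2 with DESeq2 and with the Y-linked covariate, 0 with the replicate block (Gc, 1.96 against 1.95, edgeR adjusted p = 0.746) and 1 to 2 on leaving out embryos (2 without Dnmt3b KO 1). The 2 in the ExE endoderm of Dnmt1 KO became 1 with the Y-linked covariate, 4 with the replicate block and 2 to 4 on leaving out embryos (4 without Dnmt3a KO 2). In other classes the 4 calls of Dnmt1 KO became 1 with at least 50 cells, since the endothelium and gut endoderm could then not be tested, and 3 to 4 on leaving out embryos. Lrp2 in the gut endoderm also lost its call with the Y-linked covariate (-1.54, edgeR adjusted p = 0.0134) and with the replicate block (-1.35, 0.0141). Where not stated, the cause was not tested. The shares of all genes called under these alternatives are not given.

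Replicate numbers recur in the labels of the groups, but the deviations of same-numbered embryos correlated from -0.53 to 0.57, so they share only a number. With the replicate block 1 pair passed in each of Dnmt3a KO (Amn in forebrain and midbrain, 1.52) and Dnmt3b KO (Dab2 in NMP, 1.32), against 0 without it.

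Differences that had not passed, all in Dnmt3a KO or Dnmt3b KO, changed sign under some settings, and none then passed. With the Y-linked covariate, whole-embryo values were 0.34, 0.0194 and 0.485 for Cubn, Lrp2 and Amn in Dnmt3a KO and 0.0922 and 0.29 for Cubn and Amn in Dnmt3b KO; Lrp2, Amn and Dab2 in the ExE endoderm of Dnmt3a KO were 0.0347, 0.0271 and -0.13, and Dab2 in NMP of Dnmt3b KO -0.11. With the replicate block, whole-embryo values were 0.12, 0.10 and 0.13 for Cubn, Lrp2 and Amn in Dnmt3a KO and 0.0464 for Lrp2 in Dnmt3b KO; in the ExE endoderm Dab2 was -0.0357 in Dnmt3a KO, and Cubn, Amn and Dab2 were 0.00241, -0.19 and 0.0786 in Dnmt3b KO. With the shared cluster alone, Amn and Dab2 in the ExE endoderm of Dnmt3a KO were 0.0175 and -0.0488, and Amn in that of Dnmt3b KO was -0.0241 with the reference covariate and -0.0036 with the UMI minimum alone.

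On leaving out single embryos, whole-embryo changes ran in Dnmt3a KO from -0.17 to 0.0881 (Cubn), -0.23 to 0.0215 (Lrp2), -0.15 to 0.0844 (Amn) and -0.10 to 0.36 (Dab2), and in Dnmt3b KO from -0.40 to 0.0619, -0.32 to 0.0524, -0.23 to 0.0382 and -0.34 to 0.0302. In the ExE endoderm they ran in Dnmt3a KO from -0.16 to 0.0789 (Cubn) and -0.17 to 0.0607 (Lrp2), and in Dnmt3b KO from -0.24 to 0.0293 (Cubn), -0.0490 to 0.19 (Lrp2) and -0.0084 to 0.0662 (Amn). Amn in the forebrain and midbrain of Dnmt3a KO ran from -0.00087 to 1.32, and Dab2 in NMP of Dnmt3b KO from -0.25 to 0.43. The log2 difference in ExE endoderm share ran from -0.18 to 0.56 in Dnmt3a KO, below 0 without Dnmt3a KO 2, from 0.41 to 1.13 in Dnmt1 KO and from -0.38 to -0.07 in Dnmt3b KO.

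Depth limits Lrp2 most: at 3000 UMIs per cell 27.7% of WT ExE endoderm cells had a Lrp2 UMI against 55.6% before thinning. Precision is that of 3 to 7 embryos per group and, in the endothelium and gut endoderm of Dnmt1 KO, of 28 to 137 cells per embryo. The shared cluster, the shallow cluster and, in classes other than the ExE endoderm, the covariates, the block, the UMI minimum, separate libraries and leaving out embryos were added after the data were seen.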
